A study of Rattus norvegicus with 8 samples.

Results

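The genes described here are the xenobiotic receptors CAR (Nr1i3) and PXR (Nr1i2), their cytochrome P450 targets Cyp2b1, Cyp2b2, Cyp3a2, Cyp3a9, Cyp3a18, Cyp3a23-3a1 and Cyp3a62, and Por, the reductase that passes electrons to these enzymes. They were taken by name: the 10 names match 11 of the 30562 annotated genes of the deposited count table, because Cyp3a23-3a1 stands there under 2 identifiers. Of these 11 entries, 10 passed the filter on low counts, among 16591 genes tested in all. The entry that failed, the second one of Cyp3a23-3a1, has 0 reads in all 8 libraries.

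RNA was sequenced from the livers of 8 rats, 2 in each of 4 groups, and the study compared hexachlorobenzene (HCB), atorvastatin and both together. HCB is a chlorinated fungicide and persistent pollutant, and atorvastatin is a statin that inhibits cholesterol synthesis. The atorvastatin plus HCB group received both agents and the HCB group received HCB at 100 mg/kg by gavage 3 times a week for 30 days. The atorvastatin group drank water with atorvastatin for 30 days, at 5 mg/kg daily by the labels, and the control group received vehicle. All animals are labelled as male Wistar rats of 160 g at the start, killed on day 37. Per the labels, 5 rats were treated per group and 2 of each were sequenced as separate animals. The water recipe in the same labels gives 31.25 mg/kg of atorvastatin at the starting weight, so the dose received is uncertain.

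CAR and PXR are nuclear receptors of the hepatocyte that bind DNA together with the retinoid X receptor RXR. CAR is held in the cytoplasm with HSP90 and a co-chaperone until a drug such as phenobarbital releases it to the nucleus, where Cyp2b genes are its classical targets. PXR is activated by binding a wide range of drugs and steroids, and Cyp3a genes are its classical targets, although each receptor can act on the targets of the other. In rats, HCB is known as an inducer of liver cytochromes P450 of several families.

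Levels are in CPM, read counts per megaread of library size after TMM normalisation, and the libraries held between 29376942 and 51982004 assigned reads. Each log2 fold change is given with its standard error (SE), from edgeR's quasi-likelihood test, and a gene is called where the Benjamini-Hochberg adjusted p over the 16591 genes is under 0.05. In whole liver, a change in the number of cells of a type and a change in RNA per cell cannot be told apart.

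The libraries without HCB stood apart from their labels. Of 6 genes on the Y chromosome, 4 (Ddx3, Eif2s3y, Kdm5d and Uty) rose in both comparisons of HCB with its reference, Ddx3y was not called, and Usp9y was at 0 in 6 of the 8 libraries. The summed level of the 6 was between 136 and 218 CPM in the 4 HCB-labelled libraries and between 1.99 and 4.04 CPM in the 4 atorvastatin and control libraries. Of 7 genes of fetal and neonatal liver, Afp, H19, Igf2, Dlk1 and Gpc3 fell in both and Igf2bp3 and Lin28b were not called. Summed levels were between 246 and 433 CPM in HCB-labelled libraries and between 37594 and 51383 CPM in libraries without HCB. All 6 neutrophil markers and all 6 erythroid markers fell in both comparisons. The neutrophil sum was between 0.401 and 3.17 CPM with HCB and between 129 and 218 CPM without, with Elane at 0 in 3 HCB-labelled libraries. The erythroid sum was between 284 and 1284 CPM with HCB and between 1851 and 4610 CPM without. Of 7 hepatocyte markers, 2 rose, 1 fell and 4 were not called in each of the comparisons. Reads in no annotated exon were 7.46% to 11.4% of the reads in HCB-labelled libraries and 15.3% to 34.0% in the others, and the part of these differences in the results was not tested. The labels give all 8 rats as males of the same weight, so every difference between HCB-labelled libraries and those without HCB is given with this reservation: HCB exposure and the differences in Y-linked, fetal and blood cell genes cannot be told apart. No result without the 4 libraries in doubt can be given for these comparisons, since they are their whole reference side.

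In HCB against control livers, 7 of the 10 genes were called, 6 higher and 1 lower, where 26.9% of all genes tested were called, 13% higher and 13.9% lower. Between atorvastatin plus HCB and atorvastatin livers, 6 were called, all higher, where 27.6% of all genes were called, 12.6% higher and 15% lower. The median log2 fold change of the 10 was 0.95 in HCB against control and 1.10 in atorvastatin plus HCB against atorvastatin, while over all genes it was -0.09 and -0.11. With all 4 libraries on each side, the average HCB effect, 9 of the 10 were called, 8 higher and 1 lower, where 46.6% of all genes were called, 21.3% higher and 25.3% lower. Leaving out 1 library at a time lost some of the calls in HCB against control and in atorvastatin plus HCB against atorvastatin livers. In HCB against control the most calls were lost without control replicate 2.

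Between the 4 HCB-labelled and the 4 other libraries, 7 of the genes were higher with no overlap in level, namely Nr1i2, Nr1i3, Cyp3a2, Cyp3a9, Cyp3a18, Cyp3a62 and Por, where 21.8% of all genes were higher without overlap. Cyp2b1 was lower without overlap, as were 25% of all genes. Cyp2b2 and Cyp3a23-3a1 overlapped. Taken pair by pair, 8 of the 10 did not overlap between HCB and control livers, where 64.5% of all genes did not, and 9 did not overlap between atorvastatin plus HCB and atorvastatin livers, where 72% did not. The plot of levels by library shows this pattern.

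**Figure D1:**
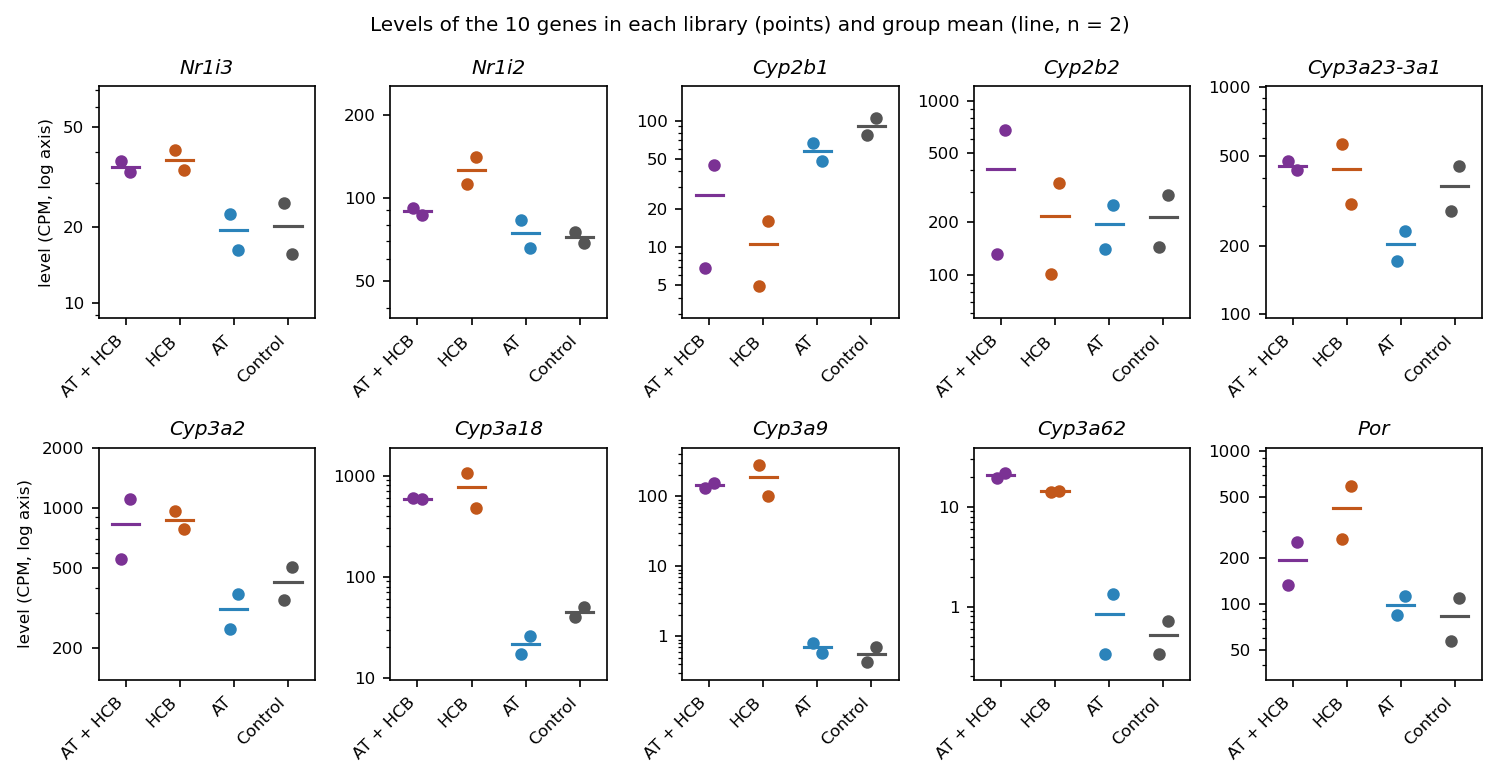
Level of each of the 10 genes in each library, in CPM on a log axis that differs between panels; points are libraries and lines are group means (n = 2). AT is atorvastatin. Cyp3a9, Cyp3a18 and Cyp3a62 are separated by HCB label by the widest margins, Cyp2b2 and Cyp3a23-3a1 overlap, and Cyp2b1 is lower in all 4 HCB-labelled libraries.

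Both receptors were detected in every library. Nr1i3 (mRatBN7.2 chr13:83632899-83637906, plus strand), which encodes CAR, was at 36.6 and 33.2 CPM in atorvastatin plus HCB livers, 40.5 and 33.8 CPM in HCB livers, 22.7 and 16.3 CPM in atorvastatin livers, and 24.9 and 15.7 CPM in control livers. The 4 HCB-labelled libraries were all above the other 4, with means of 36.0 ± 3.32 and 19.9 ± 4.63 CPM (SD, n = 4 each). Nr1i3 rose by 0.87 ± 0.28 (log2 fold change ± SE) in HCB against control livers, with an adjusted p of 0.0398 by edgeR. It rose by 0.84 ± 0.28 in atorvastatin plus HCB against atorvastatin livers, with an adjusted p of 0.0447. These calls lie near the threshold. The HCB against control call was lost without HCB replicate 1 (adjusted p = 0.145 by edgeR), without control replicate 2 (0.215), and also without HCB replicate 2 or either atorvastatin plus HCB library. The call in atorvastatin plus HCB against atorvastatin was lost without either atorvastatin plus HCB library, without atorvastatin replicate 2 (0.195), and with a filter of 1 CPM in 2 libraries (0.0588). Averaged over both comparisons, Nr1i3 rose by 0.86 ± 0.20, with an adjusted p of 0.00487 by edgeR.

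Nr1i2 (chr11:62460213-62496658, plus strand), which encodes PXR, was at 92.1 and 86.3 CPM in atorvastatin plus HCB livers, 112 and 141 CPM in HCB livers, 83.3 and 65.8 CPM in atorvastatin livers, and 75.2 and 68.7 CPM in control livers. Its highest levels were in both HCB libraries, and the groups atorvastatin plus HCB and atorvastatin were separated by a narrow margin. Nr1i2 rose by 0.81 ± 0.24 in HCB against control livers, with an adjusted p of 0.0270 by edgeR. In atorvastatin plus HCB against atorvastatin livers the log2 fold change was 0.26 ± 0.24, with an adjusted p of 0.430 and a 95% interval from -0.26 to 0.78. The difference between these effects, the interaction, was -0.55 ± 0.33 and was not called (adjusted p = 1.00 by edgeR). The HCB against control call was lost without HCB replicate 2 (adjusted p = 0.0813 by edgeR), without control replicate 1 (0.108) and without control replicate 2 (0.119). Averaged over both comparisons it rose by 0.54 ± 0.17 (adjusted p = 0.0216 by edgeR), and this call was lost without either atorvastatin plus HCB library, either control library or atorvastatin replicate 2.

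Per kilobase of exon, Nr1i2 stood above Nr1i3 in every group: the means were 38.2 RPKM for Nr1i2 and 12.8 RPKM for Nr1i3 in atorvastatin plus HCB livers, and 30.8 RPKM for Nr1i2 and 7.48 RPKM for Nr1i3 in control livers. RPKM here is CPM divided by exon length in kilobases, the scale on which genes can be compared with each other.

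Cyp2b1 and Cyp2b2 are neighbours on chromosome 1 (mRatBN7.2 chr1:81518408-81542052 and chr1:81594555-81608566, plus strand), 52503 bases apart, each annotated with 1902 exon bases. They encode the main phenobarbital-inducible P450 enzymes of rat liver and are near-identical copies, so reads that matched both were left out of the counts and part of the signal of either may be missing. Reads that map to several places were 10.4% to 21.0% of the reads of a library, so this loss may differ between libraries. The upstream sequences of both genes, from RefSeq on GRCr8, are shown because they carry the same nearness. Over 233 aligned bases upstream of the annotated starts, 225 are identical (96.6%) and 8 differ. Capitals mark the bases that differ. The first is chr1:90645869-90646118 and the second chr1:90722031-90722280, both on the plus strand and written 5′ to 3′ up to the base before the annotated start, which lies further downstream for Cyp2b2.
Cyp2b1: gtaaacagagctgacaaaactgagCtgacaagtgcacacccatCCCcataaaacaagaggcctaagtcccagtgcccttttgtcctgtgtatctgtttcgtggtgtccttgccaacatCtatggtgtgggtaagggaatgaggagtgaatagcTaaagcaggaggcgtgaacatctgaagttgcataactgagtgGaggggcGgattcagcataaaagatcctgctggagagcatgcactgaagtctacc
Cyp2b2: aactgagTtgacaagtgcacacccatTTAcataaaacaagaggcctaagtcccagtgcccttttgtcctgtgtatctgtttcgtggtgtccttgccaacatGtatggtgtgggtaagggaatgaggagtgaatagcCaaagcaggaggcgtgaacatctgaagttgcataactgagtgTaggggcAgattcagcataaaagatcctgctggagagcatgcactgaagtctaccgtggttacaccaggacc

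Despite this likeness the counted levels of the pair differed. Cyp2b1 was at 6.87 and 44.6 CPM in atorvastatin plus HCB livers, 4.94 and 16.2 CPM in HCB livers, 66.6 and 48.0 CPM in atorvastatin livers, and 77.0 and 104 CPM in control livers. All 4 HCB-labelled libraries were below the other 4, although atorvastatin plus HCB replicate 2 was within a few CPM of atorvastatin replicate 2. Cyp2b1 fell by 3.10 on the log2 scale in HCB against control livers (SE 0.81, adjusted p = 0.0223 by edgeR). The call was lost without HCB replicate 1 (log2 fold change -2.46, adjusted p = 0.156 by edgeR) and without either control library (0.139 and 0.145) or either atorvastatin library (0.115 and 0.130).

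In atorvastatin plus HCB against atorvastatin livers the log2 fold change of Cyp2b1 was -1.15 ± 0.76, with an adjusted p of 0.281 by edgeR. This value rests on 1 library: without atorvastatin plus HCB replicate 2 it was -3.03, with an adjusted p of 0.00991. Cyp2b1 was also called lower in that comparison with no filter on low counts (adjusted p = 5.37e-04 by edgeR). The log2 fold change was again -1.15 there, with an SE of 0.29 in place of 0.76. The average HCB effect on Cyp2b1 was -2.12 ± 0.55, with an adjusted p of 0.0124 by edgeR, and the call was lost without HCB replicate 1, either atorvastatin library or either control library.

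Cyp2b2 was at 132 and 674 CPM in atorvastatin plus HCB livers, 101 and 335 CPM in HCB livers, 141 and 252 CPM in atorvastatin livers, and 144 and 286 CPM in control livers. The HCB-labelled libraries lay on both sides of the others, and replicate 2 was above replicate 1 in every group. The log2 fold change was 0.02 ± 0.76 in HCB against control livers (adjusted p = 0.987 by edgeR), with a 95% interval from -1.71 to 1.75. It was 1.04 ± 0.77 in atorvastatin plus HCB against atorvastatin livers (adjusted p = 0.340). With no filter on low counts it was again 1.04, with an SE of 0.32, and Cyp2b2 was called higher (adjusted p = 0.00786 by edgeR).

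The share of Cyp2b1 among the reads of both genes separated the libraries by HCB label. It was 4.94% (95% exact binomial interval 4.38 to 5.54) and 6.21% (5.95 to 6.48) in atorvastatin plus HCB livers, and 4.66% (3.97 to 5.42) and 4.61% (4.26 to 4.98) in HCB livers. In atorvastatin livers it was 32.1% (31.1 to 33.1) and 15.98% (15.4 to 16.6), and in control livers 34.9% (33.9 to 35.9) and 26.7% (26.0 to 27.3). These intervals cover counting error only, and since mates were counted singly the reads are not independent and the intervals are too narrow. Among the HCB-labelled libraries, atorvastatin plus HCB replicate 2 had the highest share, above the intervals of the other 3. There were between 15.1 and 20.7 Cyp2b2 reads per Cyp2b1 read in HCB-labelled libraries and between 1.86 and 5.26 in the libraries without HCB.

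Summed, so that it does not matter which copy a counted read was given to, the pair was at 139 and 719 CPM in atorvastatin plus HCB livers, 106 and 351 CPM in HCB livers, 207 and 300.4 CPM in atorvastatin livers, and 221 and 390.4 CPM in control livers. The groups overlapped. The log2 fold change of the sum was -0.42 ± 0.74 in HCB against control livers (adjusted p = 0.709 by edgeR), and 0.76 ± 0.74 in atorvastatin plus HCB against atorvastatin livers (adjusted p = 0.474). The average HCB effect on the sum was 0.17 ± 0.52 (adjusted p = 0.808 by edgeR), opposite in sign to that on Cyp2b1 alone. A fall was thus called for Cyp2b1 but not for the pair as a whole.

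**Figure D2:**
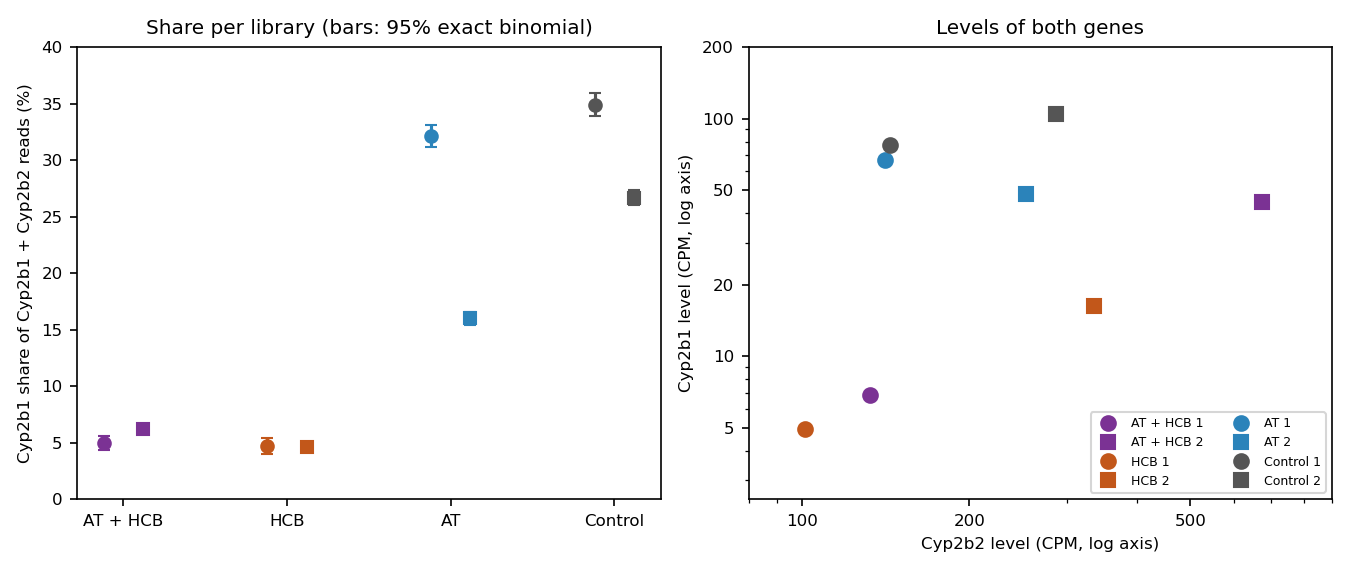
Left, percent of Cyp2b1 among the reads of Cyp2b1 and Cyp2b2 in each library, with 95% exact binomial intervals that treat every read as independent; right, level of Cyp2b1 against that of Cyp2b2 in CPM, both axes log. Circles are replicate 1 and squares replicate 2. The 4 HCB-labelled libraries have shares between 4.61% and 6.21%, and the others between 15.98% and 34.9%.

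Within the HCB-labelled libraries both genes ran in the same order, from atorvastatin plus HCB replicate 2 through HCB replicate 2 and atorvastatin plus HCB replicate 1 down to HCB replicate 1. The highest level was 9.04 times the lowest for Cyp2b1 and 6.66 times the lowest for Cyp2b2, the widest ranges of the 10 genes there. The part of reads placed on the wrong copy in this shared order was not tested. Of all genes tested, 6.06% ran in that order. Of 21 other CAR and PXR targets, 1 did, Aldh1a1, an aldehyde dehydrogenase named after its values were seen, at 26.7 and 149 CPM in atorvastatin plus HCB livers and 21.6 and 56.2 CPM in HCB livers. None of the other 8 genes of the set ran in it. Among 23 partners and regulators of CAR and PXR, Ncoa1, Ncoa2, Ncoa3, Ppargc1a and Rxrg did, named after their values were seen. Their ranges were narrower, with the highest level between 1.35 (Ppargc1a) and 1.81 (Ncoa1) times the lowest.

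Another member of the cluster, Cyp2b3, behaved differently. Cyp2b3, which in rats is not known as phenobarbital-inducible, was at 1263 and 1103 CPM in atorvastatin plus HCB livers, 1118 and 1180 CPM in HCB livers, 41.4 and 94.2 CPM in atorvastatin livers, and 35.5 and 66.2 CPM in control livers. The HCB-labelled libraries lay close together and far above the others. Cyp2b3 rose by 4.50 ± 0.48 in HCB against control livers (adjusted p = 1.06e-04 by edgeR) and by 4.13 ± 0.47 in atorvastatin plus HCB against atorvastatin livers (adjusted p = 1.71e-04). Per kilobase of annotated exon it averaged 658 RPKM in HCB livers, the highest of the Cyp2b and Cyp3a genes, and 29.1 RPKM in control livers. Counted over the exon bases that Cyp3a2 shares with no other gene, Cyp3a2 stood above it in HCB livers, at 1260.0 and 1015 RPKM. Cyp2b12, Cyp2b15 and Cyp2b21 had 13, 6 and 17 reads over all 8 libraries and were not tested.

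The Cyp3a genes lie on chromosome 12, and their counting depends on the annotation. Cyp3a18 is at chr12:8880528-8930381 on the plus strand, Cyp3a2 at chr12:9015383-9285008 and Cyp3a23-3a1 at chr12:9254475-9285030 on the minus strand (mRatBN7.2). Further along are Cyp3a62, at chr12:16397998-16433833 on the plus strand, and Cyp3a9, at chr12:16806207-16846422 on the minus strand. Of 2577 exon bases of Cyp3a2, 1805 (70.0%) also belong to exons of other Cyp3a entries, all of them in the second Cyp3a23-3a1 entry, whose 1805 exon bases are all shared. Reads in shared bases were ambiguous and were not counted, which leaves Cyp3a2 with 772 countable bases and the second Cyp3a23-3a1 entry with none. The tested Cyp3a23-3a1 entry shares 385 of 3562 bases (10.8%). Exons of Cyp3a9, Cyp3a18 and Cyp3a62 overlap no other gene. Levels of Cyp3a2 are thus counted from a minor part of its exons, so an RPKM over its whole exon length understates it.

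Upstream sequences of the PXR-inducible Cyp3a23-3a1 and of its relative Cyp3a2, from RefSeq on GRCr8, are shown because both hold the classical PXR element, a direct repeat with 3 bases between its copies (DR3). The pattern, AGTTCA followed by any 3 bases and by AGTTCA again, was searched on both strands in the 250 bases before the start of 27457 genes. It was found in 2 of them (0.00728%), and these are the 2 genes shown. The letters of the pattern are those of the element in these genes, so this share describes the sequences and tests nothing. Capitals mark the match, which reads on the opposite strand in both. The first is chr12:14398804-14399053 and the second chr12:14343858-14344107, both on the minus strand and written 5′ to 3′ along the gene.
Cyp3a23-3a1: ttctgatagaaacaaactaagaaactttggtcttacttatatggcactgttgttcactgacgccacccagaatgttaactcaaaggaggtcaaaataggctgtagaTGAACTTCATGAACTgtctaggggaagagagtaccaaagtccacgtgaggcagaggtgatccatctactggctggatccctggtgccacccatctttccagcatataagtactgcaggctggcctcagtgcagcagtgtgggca
Cyp3a2: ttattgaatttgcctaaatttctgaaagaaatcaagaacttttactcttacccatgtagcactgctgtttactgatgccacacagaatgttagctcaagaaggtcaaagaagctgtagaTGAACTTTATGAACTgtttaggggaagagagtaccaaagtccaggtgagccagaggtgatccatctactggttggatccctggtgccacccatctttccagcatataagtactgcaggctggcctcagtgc

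The match lies 144 to 130 bases before the start of Cyp3a23-3a1 and 131 to 117 bases before that of Cyp3a2, and the aligned windows are 87.3% identical. A looser DR3 pattern, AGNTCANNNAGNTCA, was found in 16 promoters (0.0583%), again including these and no other of the 10 genes. It matched Cyp3a2 a second time, as AGCTCAAGAAGGTCA, 159 to 145 bases before the start. The patterns of a direct repeat with 4 bases between copies (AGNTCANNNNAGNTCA, in 0.0546% of promoters) and of everted repeats with 6 (TGANCTNNNNNNAGNTCA, 0.0401%) or 8 (TGANCTNNNNNNNNAGNTCA, 0.0510%) had no match in any of the 10. A match is a run of letters and not a measured binding site. Elements further upstream than the 250 bases searched could not be found, so the lack of a match does not show that a gene lacks the element.

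Cyp3a23-3a1 and Cyp3a2 had the smallest differences by HCB label among the Cyp3a genes, and a link with their matches was not tested. Cyp3a23-3a1 was at 472 and 432 CPM in atorvastatin plus HCB livers, 564 and 307 CPM in HCB livers, 172 and 233 CPM in atorvastatin livers, and 284 and 452 CPM in control livers. HCB and control livers overlapped, while atorvastatin livers were the lowest. The log2 fold change was 0.24 ± 0.36 in HCB against control livers (adjusted p = 0.644 by edgeR), with a 95% interval from -0.54 to 1.03. It rose by 1.16 ± 0.36 in atorvastatin plus HCB against atorvastatin livers (adjusted p = 0.0365), a call lost without atorvastatin replicate 1 (0.172) and without either atorvastatin plus HCB library (0.150 and 0.101). The average HCB effect was 0.70 ± 0.25 (adjusted p = 0.0421), and this call was lost with the replicate number as a block (0.0537) and without either atorvastatin plus HCB library, HCB replicate 1, atorvastatin replicate 1 or control replicate 1. The interaction for Cyp3a23-3a1, 0.91 ± 0.51, was not called (adjusted p = 1.00 by edgeR).

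Cyp3a2, in rats an enzyme of adult male liver, was at 559 and 1119 CPM in atorvastatin plus HCB livers, 973 and 783 CPM in HCB livers, 249 and 374 CPM in atorvastatin livers, and 346 and 509 CPM in control livers. All HCB-labelled libraries were above all others. The log2 fold change in HCB against control livers was 1.04 ± 0.40 (adjusted p = 0.0740 by edgeR), and it was called by DESeq2 (0.0178), with no filter on low counts (0.0168) and with the replicate number as a block (0.0457). Cyp3a2 rose by 1.43 ± 0.40 in atorvastatin plus HCB against atorvastatin livers (adjusted p = 0.0227 by edgeR). That call was lost without atorvastatin plus HCB replicate 2 (log2 fold change 0.87, adjusted p = 0.213) and without atorvastatin replicate 1 (0.118). The average HCB effect was 1.23 ± 0.28 (adjusted p = 0.00458 by edgeR).

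Much wider differences were found for Cyp3a18, Cyp3a9 and Cyp3a62. Cyp3a18, a steroid-hydroxylating enzyme of rat liver, was at 599 and 583 CPM in atorvastatin plus HCB livers, 1053 and 474 CPM in HCB livers, 17.2 and 26.1 CPM in atorvastatin livers, and 39.9 and 50.5 CPM in control livers. The lowest HCB-labelled library was several times above the highest library without HCB. Cyp3a18 rose by 4.08 ± 0.43 in HCB against control livers (adjusted p = 9.71e-05 by edgeR) and by 4.77 ± 0.44 in atorvastatin plus HCB against atorvastatin livers (adjusted p = 4.77e-05).

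Cyp3a9, in rats a Cyp3a enzyme that is higher in females, was at 131 and 158 CPM in atorvastatin plus HCB livers, 277 and 100.0 CPM in HCB livers, 0.814 and 0.581 CPM in atorvastatin livers, and 0.432 and 0.710 CPM in control livers. In the libraries without HCB these levels rest on 17 to 34 reads each. Cyp3a9 had the largest rise of the 10 genes in both comparisons, 8.35 ± 0.57 in HCB against control livers (adjusted p = 5.74e-06 by edgeR) and 7.69 ± 0.55 in atorvastatin plus HCB against atorvastatin livers (adjusted p = 8.82e-06).

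Cyp3a62, known in rats from liver and intestine, was at 19.5 and 21.9 CPM in atorvastatin plus HCB livers, 14.2 and 14.4 CPM in HCB livers, 0.335 and 1.33 CPM in atorvastatin livers, and 0.330 and 0.710 CPM in control livers. Replicates were close with HCB, and the libraries without HCB were far below, at 13 to 64 reads each. It rose by 4.77 ± 0.55 in HCB against control livers (adjusted p = 1.92e-04 by edgeR) and by 4.61 ± 0.53 in atorvastatin plus HCB against atorvastatin livers (adjusted p = 1.92e-04). Of 5 genes listed as markers of intestinal epithelium, Cdx2 was at 0 in all 4 HCB-labelled libraries, and Lgals4, Fabp2 and Vil1 reached at most 1.14 CPM there. Cdh17 was at 150 and 32.7 CPM in atorvastatin plus HCB and 314 and 168 CPM in HCB livers, against at most 1.16 CPM without HCB. Vil1 went the other way, at 1.72 and 1.70 CPM in atorvastatin and 2.13 and 1.28 CPM in control livers, against at most 0.570 CPM with HCB. The part of intestinal tissue in the level of Cyp3a62 was not tested. The calls of Cyp3a18, Cyp3a9 and Cyp3a62 in these comparisons held under every alternative and without any single library.

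Cyp3a73, a further gene of the cluster that is not in the set, was at 46.3 and 29.0 CPM in atorvastatin plus HCB livers, 52.1 and 30.7 CPM in HCB livers, 0.239 and 0.374 CPM in atorvastatin livers, and 0.432 and 0.332 CPM in control livers. It rose by 6.75 ± 0.44 in HCB against control livers (adjusted p = 3.78e-06 by edgeR) and by 6.91 ± 0.44 in atorvastatin plus HCB against atorvastatin livers (adjusted p = 3.23e-06). Its second entry has all exon bases shared and 0 reads.

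Genes known for sex-dependent or adult expression in rat liver moved in the same libraries. Of 7 tested entries of such genes, 6 rose in HCB against control livers and in atorvastatin plus HCB against atorvastatin livers, where 13% and 12.6% of all genes were called higher. The 6 are Cyp2c11, Cyp2c13, Hsd3b5 and Rup2, 1 of 2 entries of Cyp2a2, and Cyp2c12, which in rats is higher in females. The summed level of the 7 was between 6354 and 9340 CPM with HCB and between 152 and 299 CPM without. Cyp2c11 was at 4101 and 2641 CPM in atorvastatin plus HCB and 3441 and 3120 CPM in HCB livers, against 10.5 and 8.93 CPM in atorvastatin and 4.85 and 4.74 CPM in control livers. Their part in the differences of Cyp3a2, Cyp3a9, Cyp3a18 and Cyp3a62 was not tested.

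Summed over the 5 Cyp3a genes of the set, levels were 1781 and 2314 CPM in atorvastatin plus HCB livers, 2880.3 and 1679 CPM in HCB livers, 439.7 and 636 CPM in atorvastatin livers, and 670.0 and 1013 CPM in control livers. The sum rose by 1.44 ± 0.40 in HCB against control livers (adjusted p = 0.0224 by edgeR) and by 1.93 ± 0.41 in atorvastatin plus HCB against atorvastatin livers (adjusted p = 0.00590). The make-up of the Cyp3a transcripts differed along with the sum. Per kilobase of annotated exon, Cyp3a18 made up 41.1% and 31.1% of the level of all Cyp3a entries in atorvastatin plus HCB livers and 43.4% and 34.5% in HCB livers, against 5.61% and 5.84% in atorvastatin and 8.58% and 7.25% in control livers. Cyp3a9 made up 7.35% to 11.5% in HCB-labelled libraries and at most 0.268% in the others. The share of Cyp3a23-3a1 took the opposite course, with 12.5% to 18.1% in HCB-labelled libraries and 29.1% to 36.2% in those without HCB. Its own level was not called lower, with log2 fold changes of 0.24 ± 0.36 in HCB against control and 1.16 ± 0.36 in atorvastatin plus HCB against atorvastatin livers.

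Which Cyp3a gene stood first with HCB depended on the length used and on the library. Per kilobase of annotated exon, Cyp3a18 averaged 384 RPKM and Cyp3a2 341 RPKM in HCB livers, and Cyp3a2 had 166 RPKM and Cyp3a18 22.8 RPKM in control livers. Cyp3a18 led in HCB replicate 1 (530 against 377 RPKM), and Cyp3a2 led in HCB replicate 2 (304 against 239 RPKM). In atorvastatin plus HCB livers Cyp3a18 led in replicate 1 (301 against 217 RPKM) and Cyp3a2 in replicate 2 (434 against 294 RPKM). Per kilobase of exon that belongs to no other gene, Cyp3a2 made up 57.5% and 73.4% of the Cyp3a level in atorvastatin plus HCB livers and 59.3% and 71.8% in HCB livers, against 83.5% and 84.7% in atorvastatin and 80.3% and 79.7% in control livers. On that scale Cyp3a2 was first in all 8 libraries, and Cyp3a18 made up 14.9% to 24.9% with HCB. The larger share of Cyp3a18 and Cyp3a9 with HCB held on both scales.

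**Figure D3:**
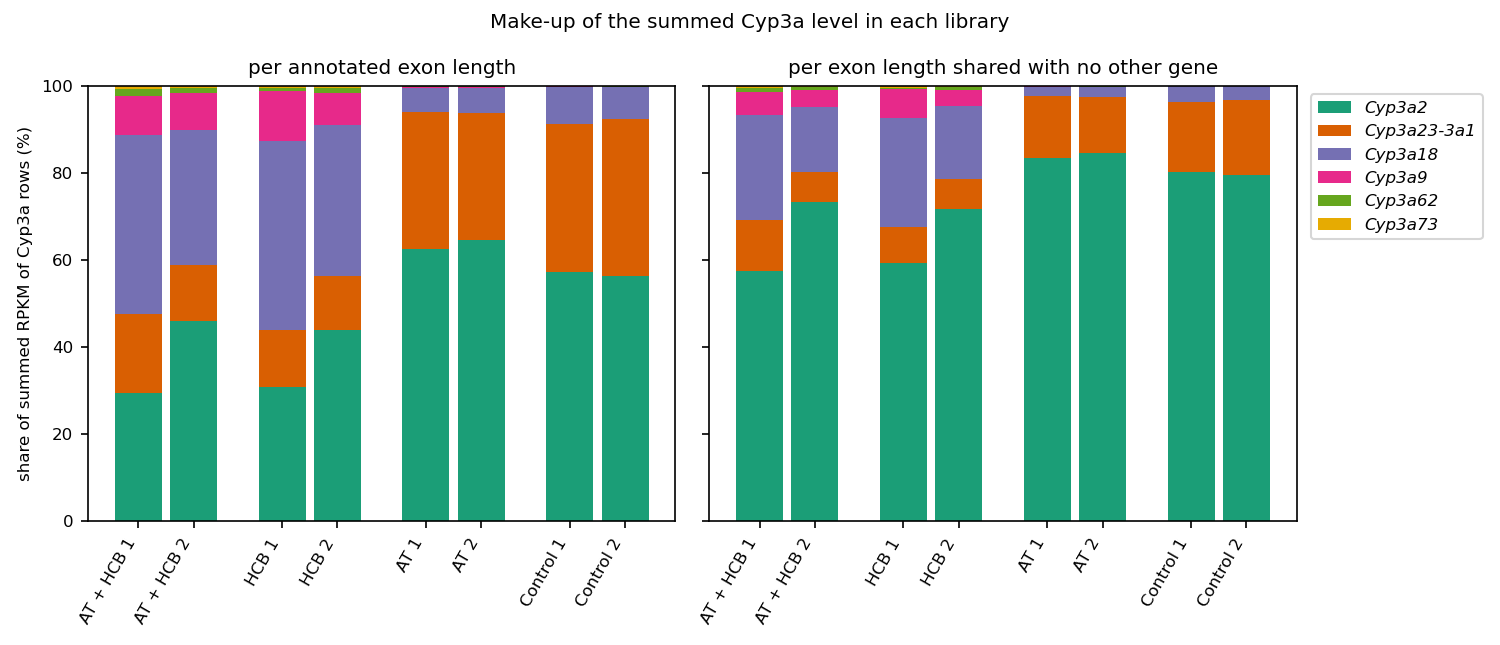
Share of each Cyp3a gene in the summed Cyp3a level (RPKM) of each library, in percent, computed per annotated exon length (left) and per exon length that belongs to no other gene (right); AT is atorvastatin. Cyp3a18 makes up 31.1% to 43.4% in HCB-labelled libraries on the left and 14.9% to 24.9% on the right, and Cyp3a2 is the largest part of every library on the right.

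Por (chr12:20951058-20999245, minus strand) encodes NADPH-cytochrome P450 reductase, which all microsomal P450 enzymes need. It was at 132 and 254 CPM in atorvastatin plus HCB livers, 266 and 589 CPM in HCB livers, 84.9 and 112 CPM in atorvastatin livers, and 57.3 and 110 CPM in control livers. HCB livers were the highest, atorvastatin plus HCB livers were next, and replicate 2 exceeded replicate 1 in every group. Por rose by 2.35 ± 0.47 in HCB against control livers (adjusted p = 0.00451 by edgeR). In atorvastatin plus HCB against atorvastatin livers the log2 fold change was 0.97 ± 0.45 (adjusted p = 0.130 by edgeR). It was called with the replicate number as a block (SE 0.27, adjusted p = 0.0365) and with no filter on low counts (SE 0.32, adjusted p = 0.0113). The interaction was -1.38 ± 0.63, with an unadjusted p of 0.0520 and an adjusted p of 1.00 by edgeR, so a different response of Por with atorvastatin was not shown.

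Transcripts of other proteins of P450 electron transfer rose too. All 5 tested, for cytochromes b5 (Cyb5a, Cyb5b), the b5 reductase Cyb5r3 and the heme-binding Pgrmc1 and Pgrmc2, rose in atorvastatin plus HCB against atorvastatin livers, where 12.6% of all genes were called higher. In HCB against control livers 4 rose, where 13% of all genes were called higher, and Pgrmc2 had a log2 fold change of 0.48 ± 0.23 (adjusted p = 0.148 by edgeR). Pgrmc1 rose most, by 2.78 ± 0.39 in HCB against control livers (adjusted p = 5.92e-04 by edgeR), and was at 1174 and 1111 CPM in atorvastatin plus HCB, 2041 and 969 CPM in HCB, 176 and 204 CPM in atorvastatin, and 204 and 233 CPM in control livers.

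**Figure D4:**
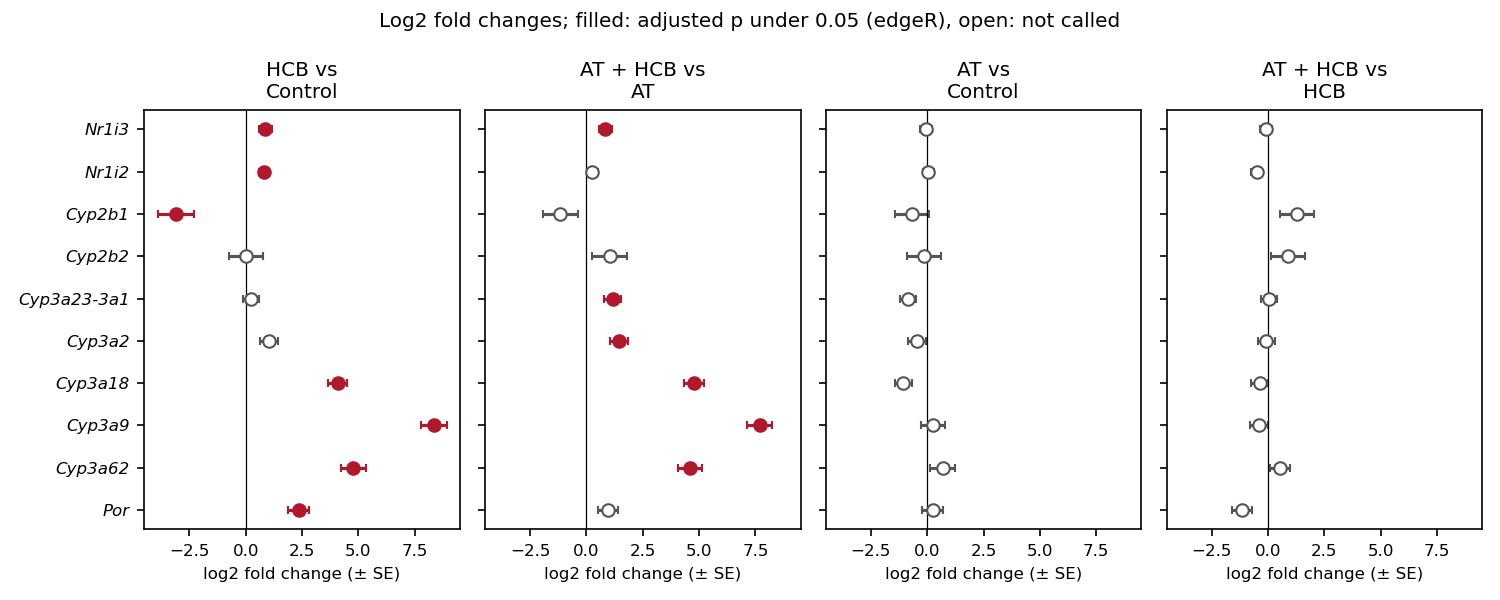
AT is atorvastatin. Log2 fold change with its standard error for each of the 10 genes in the 4 pairwise comparisons; filled red points are called at an adjusted p under 0.05 by edgeR and open points are not. In HCB against control livers 7 genes are called, in atorvastatin plus HCB against atorvastatin livers 6, and in both atorvastatin comparisons 0.

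In the atorvastatin comparisons no gene of the set passed the threshold. In atorvastatin against control livers 0 of 10 were called by edgeR, as were 0% of all genes. At an unadjusted p under 0.05 there were 2 of the 10 and 181 of all genes (1.09%), and DESeq2 called 0 of the 10 and 3 of all genes. The 2 were Cyp3a18, at a log2 fold change of -1.06 ± 0.39 (unadjusted p = 0.0187, adjusted p = 1.00 by edgeR), and Cyp3a23-3a1, at -0.86 ± 0.36 (unadjusted p = 0.0366, adjusted p = 1.00). Levels of Cyp2b1, Cyp3a18 and Cyp3a23-3a1 were lower in both atorvastatin libraries than in both control libraries, where 21.1% of all genes did not overlap in either direction. All 4 libraries are those whose Y-linked and fetal genes go against their labels. They also differ among themselves: reads in no annotated exon were 34.0% and 19.5% in atorvastatin and 27.7% and 15.3% in control libraries, and the fibroblast gene Col1a1, named after its values were seen, was at 152 and 1351 CPM in atorvastatin and 136 and 138 CPM in control libraries. The part of these differences in the comparison was not tested.

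In atorvastatin plus HCB against HCB livers, again 0 of 10 were called by edgeR, as were 0% of all genes. At an unadjusted p under 0.05 there were 1 of the 10 and 857 of all genes (5.17%), and DESeq2 called 0 of the 10 and 44 of all genes. That 1 gene was Por, at a log2 fold change of -1.15 ± 0.45 (unadjusted p = 0.0278, adjusted p = 0.892 by edgeR). Nr1i2 and Por were lower and Cyp3a62 was higher in both atorvastatin plus HCB libraries than in both HCB libraries, where 34.8% of all genes did not overlap. The 95% intervals still allow sizeable effects: from -0.45 to 3.02 on the log2 scale for Cyp2b1, from -0.85 to 2.63 for Cyp2b2, and from -1.02 to 0.02 for Nr1i2. With no filter on low counts, 2 were called, Cyp2b1 higher (adjusted p = 0.00253 by edgeR) and Por lower (adjusted p = 0.0416). Their log2 fold changes hardly moved, at 1.29 and -1.14. The SE fell from 0.77 to 0.29 for Cyp2b1 and from 0.45 to 0.32 for Por, and the levels of Cyp2b1 overlapped between these groups. This comparison shares the HCB libraries with HCB against control, so a high HCB library moves both.

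The interaction, the difference between the HCB effect with and without atorvastatin, was called for 0 of the 10 and for 0% of all genes by edgeR. At an unadjusted p under 0.05 there were 0 of the 10 and 391 of all genes (2.36%), and DESeq2 called 0 of the 10 and 5 of all genes. For Cyp2b1 it was 1.94 ± 1.07 (adjusted p = 1.00 by edgeR). With no filter on low counts it was 1.95 with an SE of 0.40, and it was called (adjusted p = 0.00107 by edgeR). Averaged over both settings, the atorvastatin effect was called for 0 of the 10 and 0% of all genes by edgeR. At an unadjusted p under 0.05 there were 1 of the 10 (Cyp3a18, -0.72 ± 0.27) and 601 of all genes (3.62%), and DESeq2 called 0 of the 10 and 6 of all genes.

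Of 23 partners and regulators of CAR and PXR, 5 rose, 1 fell and 17 were not called in HCB against control livers, where 26.9% of all genes were called, a share like that of the list. The median log2 fold change of the 23 was 0.09. With atorvastatin in both groups, atorvastatin plus HCB against atorvastatin, 7 rose, 1 fell and 15 were not called, where 27.6% of all genes were called, and the median was 0.12. Egfr, the growth factor receptor whose signalling keeps CAR in the cytoplasm, was at 591 and 377 CPM in atorvastatin plus HCB, 478 and 433 CPM in HCB, 83.1 and 112 CPM in atorvastatin, and 90.8 and 101 CPM in control livers. It rose by 2.25 ± 0.31 in HCB against control livers (adjusted p = 5.57e-04 by edgeR) and by 2.31 ± 0.31 in atorvastatin plus HCB against atorvastatin livers (adjusted p = 5.02e-04). The chaperones Hsp90aa1 and Hsp90ab1 of the cytoplasmic CAR complex rose as well, by 1.65 ± 0.36 and 1.33 ± 0.31 in HCB against control livers. Dnajc7, the co-chaperone of that complex, had a log2 fold change of 0.09 ± 0.24 there and was not called. Dnajc7, Hnf4a and the RXR genes are named here after their values were seen.

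The member of the list that fell was Ppargc1a, the coactivator PGC-1alpha, at 2.73 and 3.67 CPM in atorvastatin plus HCB, 2.72 and 3.60 CPM in HCB, 12.9 and 23.1 CPM in atorvastatin, and 12.5 and 18.1 CPM in control livers. It fell by 2.27 (SE 0.36, adjusted p = 0.00116 by edgeR) in HCB against control livers. Hnf4a, the hepatocyte factor needed for both Cyp families, rose by 0.94 ± 0.31 (adjusted p = 0.0435 by edgeR). Of the RXR partners, Rxrg rose by 0.90 ± 0.30 (adjusted p = 0.0479) and Rxra and Rxrb were not called, while Rxra rose by 1.15 ± 0.34 in atorvastatin plus HCB against atorvastatin livers (adjusted p = 0.0282). The pairwise atorvastatin comparisons called 0 of the 23 by edgeR. The smallest unadjusted p among them was 0.283 for Ahr in atorvastatin against control livers (log2 fold change -0.28 ± 0.25), followed by Cebpa (0.28 ± 0.31). For atorvastatin plus HCB against HCB livers it was 0.0519 for the corepressor Ncor1 (0.67 ± 0.31), followed by Foxa1 (0.63 ± 0.32).

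The other known targets of CAR and PXR also split. Of 26 listed, 21 were found in the table and tested. In HCB against control livers 15 rose, 3 fell and 3 were not called, where 13% of all genes were called higher and 13.9% lower, and the median log2 fold change was 2.41. Atorvastatin plus HCB against atorvastatin livers also gave 15 higher, 3 lower and 3 not called, where 12.6% of all genes were called higher and 15% lower. The median was 2.02, and over all genes the medians were -0.09 and -0.11. Cyp2c7, a retinoid and steroid hydroxylase, had the smallest p of the list, at 926 and 1819 CPM in atorvastatin plus HCB, 1095 and 1187 CPM in HCB, 4.89 and 4.11 CPM in atorvastatin, and 3.22 and 2.49 CPM in control livers. It rose by 8.64 ± 0.50 in HCB against control livers (adjusted p = 1.83e-06 by edgeR). Cyp2c6v1 rose by 4.88 ± 0.48 and the glutathione transferase Gsta5 by 4.86 ± 0.50 in the same comparison.

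The same 3 targets fell in both comparisons: Akr1b7, an aldo-keto reductase, Gsta3, another glutathione transferase, and Abcc3, a basolateral export pump, named after its values were seen. Akr1b7 was at 0.201 and 0.360 CPM in atorvastatin plus HCB, 0.538 and 0.267 CPM in HCB, 23.3 and 41.9 CPM in atorvastatin, and 23.6 and 47.7 CPM in control livers. Gsta3 was at 12.3 and 19.5 CPM in atorvastatin plus HCB, 13.7 and 13.6 CPM in HCB, 79.5 and 103 CPM in atorvastatin, and 97.4 and 110 CPM in control livers. Both were lower in every HCB-labelled library, and their log2 fold changes in HCB against control livers were -6.48 ± 0.54 and -2.92 ± 0.28. Known targets of the same receptors thus differed in direction by HCB label. Cyp2b1 was also lower, but in atorvastatin plus HCB against atorvastatin livers it was not called (adjusted p = 0.281 by edgeR). Summed with Cyp2b2, it was not called in that comparison or in HCB against control (adjusted p = 0.474 and 0.709 by edgeR). Among the 21 other targets 0 were called by edgeR in both pairwise atorvastatin comparisons. The smallest unadjusted p was that of Abcb1b, a drug efflux pump, with a log2 fold change of 1.89 ± 0.57 in atorvastatin against control livers (unadjusted p = 0.00650, adjusted p = 1.00 by edgeR). In atorvastatin plus HCB against HCB livers it was 1.28 ± 0.52 (unadjusted p = 0.0314, adjusted p = 0.892). Tsku was next in the first of these comparisons (1.41 ± 0.44) and Alas1, the first enzyme of heme synthesis, in the second (-0.68 ± 0.32).

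In the heat map of these targets the direction of most genes changes between the fourth and the next library, which is the border of the HCB label.

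**Figure D5:**
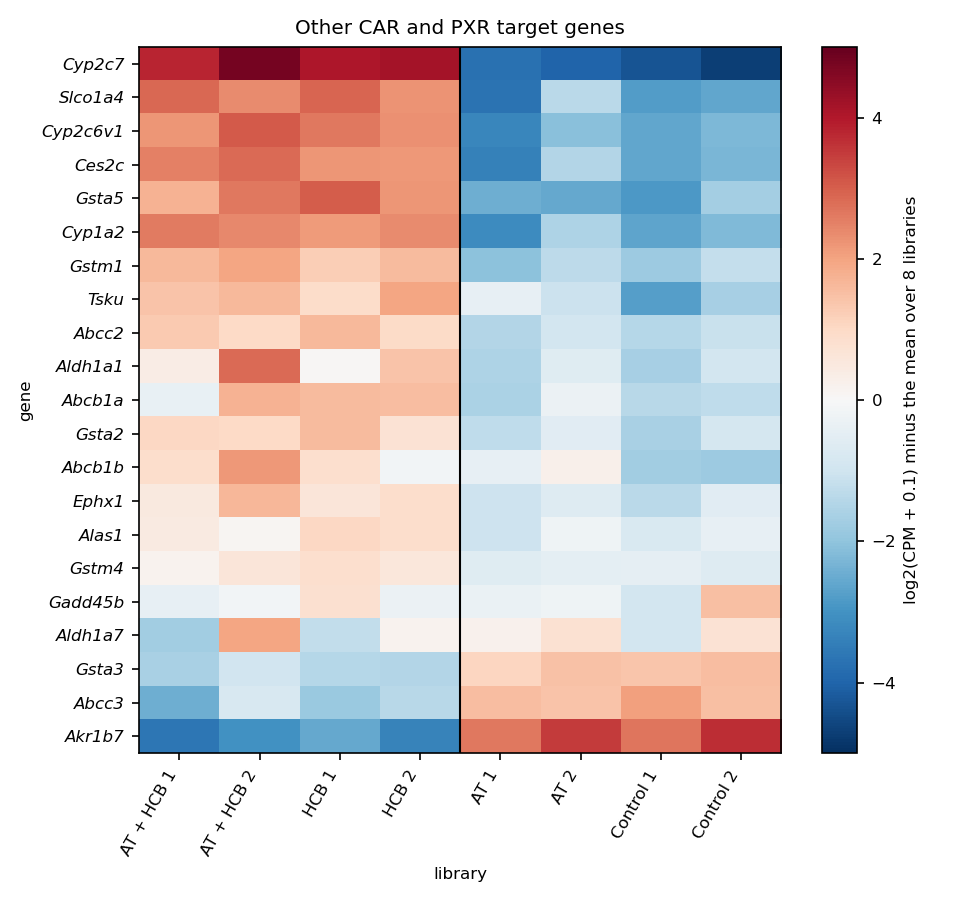
Levels of 21 other CAR and PXR targets in each library as log2(CPM + 0.1) minus the gene's mean over 8 libraries (red above, blue below; the scale runs from -5 to 5), genes ordered by the difference between the 4 HCB-labelled libraries left of the black line and the 4 others right of it. Cyp2c7 is at the top, and Gsta3, Abcc3 and Akr1b7 at the bottom are lower in all HCB-labelled libraries.

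The genes whose log2 level was most like that of Cyp2b1 over the 8 libraries were Lpcat2, Orai2, Gpr158, Abcg1 and Slc7a5, with Pearson's r between 0.976 and 0.992 among 12439 named genes. For Nr1i3 they were Setdb2, Rangrf, Usp45, Egf and Polr3c, with r between 0.979 and 0.987. For Nr1i2 they were Nt5c, Arhgef26, Slc49a4, Derl3 and AABR07032097.1, with r between 0.936 and 0.970. These values describe 8 libraries that fall into 2 sets by HCB label, share the same scaling and were searched for the highest r. Within the 4 HCB-labelled libraries alone, r with Cyp2b1 was between 0.967 and 0.998 for its 5 genes, and within the other 4 it was between 0.571 and 0.981. For the genes like Nr1i3 these ranges were 0.730 to 0.883 and 0.954 to 0.999, and for those like Nr1i2 0.871 to 0.991 and 0.299 to 0.988, the lowest being Slc49a4 in libraries without HCB.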

How the data were processed

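Gene counts are the ones the authors deposited. Per the file headers they were made with featureCounts 2.0.6 on exons of Ensembl release 111 (mRatBN7.2), without strand and without reads that map to several places or to exons of several genes. Mates were counted singly. Per the submitters' processing notes, fastp 0.23.4 and STAR 2.7.10b were used. Each library had 29376942 to 51982004 assigned reads, and 0 columns were left unused. From these counts edgeR 4.0.16 (R 4.3.3) gave TMM scaling, the default filter on low counts, and robust quasi-likelihood tests in 1 model of 4 groups, with Benjamini-Hochberg adjustment over all genes tested. Groups followed the labels, with 2 libraries each, so p-values rest on 4 residual degrees of freedom and the spread shared across genes. DESeq2 1.42.0, other filters, summed copies, a replicate block and leaving out each library were the alternatives. The script was tested on simulated data.

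The genes and gene lists were chosen with earlier results of these data known. Named were the 10 genes, every other Cyp2b and Cyp3a gene, all genes of the lists of P450 electron transfer, Y-linked, fetal and neonatal liver and sex-dependent liver genes, up to 4 called genes of smallest p per comparison from the partner and target lists (the 2 of smallest p where none was called), and the 5 genes most like Nr1i3, Nr1i2 and Cyp2b1. Promoters are RefSeq's, on GRCr8.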

Additional observations from a re-analysis of the deposited data

How the results depend on the processing

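Of 1049 values of single genes of the set under the alternatives, 943 kept their direction and their side of the threshold, 39 lost a call, 13 gained one and 54 changed sign. Of the 54, 1 had been called, the average HCB effect on Cyp2b1, which became 0.17 when its reads were summed with those of Cyp2b2, and 0 were called after the change. DESeq2 called 3 genes in atorvastatin against control, 44 in atorvastatin plus HCB against HCB, 5 in the interaction and 6 in the average atorvastatin effect, where edgeR called 0. With no filter on low counts these were 76, 179, 70 and 140, with 2 of the 10 genes called in atorvastatin plus HCB against HCB and 1 in the interaction. Leaving out 1 library gave 2164 to 4622 genes in HCB against control (2164 without control replicate 1, 2595 without HCB replicate 1) and 4 to 6 of the 10. It gave 1902 to 4819 genes in atorvastatin plus HCB against atorvastatin (1902 without atorvastatin plus HCB replicate 1, 2504 without its replicate 2, 2629 without atorvastatin replicate 1). It gave 0 to 33 genes in atorvastatin against control, 0 to 6 in atorvastatin plus HCB against HCB, 0 to 5 in the interaction and 0 to 9 in the average atorvastatin effect. In the atorvastatin comparison, the interaction and the average the highest count came without atorvastatin replicate 1, and 6 came without atorvastatin plus HCB replicate 2 or HCB replicate 2. A lone library was assumed to vary like the other groups. The cause was not tested.

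Over all genes, same-numbered deviations were weakly correlated between groups (from -0.051 to 0.269). Reads that map to several places were more frequent in replicate 1 in every group. They were 19.4% and 12.2% in HCB, 21.0% and 10.4% in atorvastatin and 20.3% and 13.2% in control libraries. The gap was narrow in atorvastatin plus HCB (11.3% and 10.7%). A block for replicate number lowered the SE of Cyp2b2 in HCB against control from 0.76 to 0.37. The part of replicate number in single genes was not tested further. With the replicate number as a block, 8 of the 10 were called in HCB against control, 7 in atorvastatin plus HCB against atorvastatin and 8 in the average HCB effect, among 4282, 4398 and 7548 genes. Fitted alone, an alternative chosen after seeing the data, the 4 libraries without HCB and the 4 HCB-labelled ones gave 0 calls between their groups. Low counts limit Cyp3a9 and Cyp3a62 without HCB.

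Summing Cyp2b1 and Cyp2b2 gave -0.42 for Cyp2b2 in HCB against control and 0.76 for Cyp2b1 in atorvastatin plus HCB against atorvastatin. Summing the Cyp3a genes gave -0.65 for Cyp3a9 and Cyp3a62 in atorvastatin against control, -0.15 for Cyp3a23-3a1 and Cyp3a62 in atorvastatin plus HCB against HCB, 0.49 for Cyp3a9 and Cyp3a62 in the interaction, and -0.40 for Cyp3a62 in the average atorvastatin effect. With the replicate number as a block, Cyp2b2 was at -0.15 in HCB against control. Leaving out 1 library at a time changed the sign of 43 values, with these ranges of the log2 fold change. In HCB against control they were -1.09 to 0.66 for Cyp2b2 and -0.24 to 0.65 for Cyp3a23-3a1. For atorvastatin plus HCB against atorvastatin they were -0.54 to 1.81 for Cyp2b2. In atorvastatin against control they were -0.13 to 0.20 for Nr1i2, -0.36 to 0.31 for Nr1i3, -0.62 to 0.46 for Cyp2b2, -0.037 to 0.68 for Cyp3a9, -0.65 to 1.35 for Cyp3a62 and -0.16 to 0.79 for Por. For atorvastatin plus HCB against HCB they were -0.21 to 0.054 for Nr1i3, -0.62 to 2.39 for Cyp2b1, -0.72 to 2.00 for Cyp2b2, -0.65 to 0.36 for Cyp3a2, -0.94 to 0.54 for Cyp3a9, -0.83 to 0.33 for Cyp3a18 and -0.31 to 0.56 for Cyp3a23-3a1. For the interaction they were -0.39 to 0.27 for Nr1i3, -0.59 to 2.13 for Cyp2b2, -0.20 to 0.81 for Cyp3a2, -1.21 to 0.26 for Cyp3a9 and -0.81 to 1.18 for Cyp3a62. For the average HCB effect they were -0.25 to 0.93 for Cyp2b2. For the average atorvastatin effect they were -0.22 to 0.11 for Nr1i3, -0.64 to 0.86 for Cyp2b1, -0.43 to 0.93 for Cyp2b2, -0.33 to 0.40 for Cyp3a9 and -0.056 to 0.94 for Cyp3a62.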
